A study of Mus musculus with 6 samples.

Results

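A set of 7 transcription factor genes that mark intestinal and hepatic-type epithelium were followed in mouse pancreatic tumour organoids: Cdx1, Cdx2, Isx, Hnf4a, Hnf4g, Gata4 and Gata6. They were chosen by name, and all 7 were found among the 53379 genes of the count table. The cells came from tumours of KPC mice of strain C57/Bl6 and were kept as organoids, which are self-organising epithelial cultures embedded in matrigel. In these mice Cre recombinase under the Pdx1 promoter, which is active in the pancreatic lineage, switches on the tumour-driving alleles, among them a mutant Trp53 (R172H). All libraries carry 1 Trp53 R172H allele and Pdx1-Cre. The 3 heterozygous libraries (Trp53LSLR172H/+; Pdx1-Cre) kept a wild-type Trp53 allele, and the 3 LOH libraries (loss of heterozygosity; Trp53LSLR172H/-) did not. Organoid lines 6, 23 and 34 gave 1 library of each kind, so the lines are the replicates. The LOH libraries also have a description suffix of unstated meaning, and what it stands for cannot be told apart from genotype. Age, passage and treatment were not given in the sources used here.

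Intestinal identity in the mouse rests on the caudal homeobox factors CDX1 and CDX2, which hold posterior endoderm apart from stomach. ISX is an intestine-specific homeobox factor that answers to retinoic acid and restrains vitamin A uptake. HNF4A and HNF4G are nuclear receptors of the same DNA-binding type; HNF4A works in liver, pancreas and gut, while HNF4G is best known from the enterocyte. GATA4 and GATA6 are zinc-finger factors of the endoderm. GATA6 is a known marker of the classical type of pancreatic cancer, and GATA4 of the foregut and proximal intestine.

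Libraries held 13680458 to 27917277 expected counts, the estimated number of reads per gene, with overlapping ranges in the 2 groups. A level is given as CPM (expected counts over TMM-scaled depth) within a gene, and as TPM (scaled for transcript length as well) between genes. A count of 3 stood for 0.1 to 0.223 CPM. Duct epithelium markers (Epcam, Cdh1, Krt8, Krt18, Krt19, Krt7, Sox9 and Cftr) were present in every library, with a summed level of 5228 to 6009 CPM in heterozygous and 5141 to 11205 CPM in LOH libraries. Defining markers of other cells were at or near 0: summed over 7 genes each, fibroblast markers reached 0.873 CPM and islet markers 0.233 CPM at most. Col3a1, Ins1, Ins2 and Adgre1 had no count in any library. The summed level of 7 leukocyte markers was 1.93 to 2.37 CPM in heterozygous and 3.26 to 14.9 CPM in LOH libraries, and that of 8 hepatocyte markers 38.2 to 53.7 and 2.93 to 17.1 CPM, nearly all of it Ttr. Their part in the results was not tested.

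Promoter windows are shown first for the 3 genes that had them: Hnf4a, which starts from a pair of promoters, and Cdx2 and Isx. They run from 250 bases before to 50 bases after the start and come from RefSeq (GRCm38.p6), which matched 3 of the 7 genes with 4 windows. No window was matched for Cdx1, Hnf4g, Gata4 or Gata6. Sequences read 5′ to 3′ on the strand of the gene. Capitals mark matches, on either strand, to the short motifs of 6 factor families. For the CDX family the letters TTTATNG were searched. For the GATA family they were AGATAA, or the variant with T as its opening letter, TGATAA. For HNF4 receptors they were CAAAGTCCA. The HNF1 homeobox factors were searched by GTTAAT. Forkhead factors of the FOXA type were searched by TGTTTAC. Homeobox factors of the ONECUT type were searched by ATCAAT.
Hnf4a P2, chr2:163506607-163506906, plus strand: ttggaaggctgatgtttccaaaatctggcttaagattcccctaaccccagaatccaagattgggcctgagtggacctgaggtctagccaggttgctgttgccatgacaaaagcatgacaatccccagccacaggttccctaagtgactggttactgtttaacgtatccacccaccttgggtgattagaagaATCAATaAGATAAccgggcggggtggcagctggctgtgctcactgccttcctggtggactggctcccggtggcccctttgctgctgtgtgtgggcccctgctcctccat
Hnf4a P1, chr2:163546905-163547204, plus strand: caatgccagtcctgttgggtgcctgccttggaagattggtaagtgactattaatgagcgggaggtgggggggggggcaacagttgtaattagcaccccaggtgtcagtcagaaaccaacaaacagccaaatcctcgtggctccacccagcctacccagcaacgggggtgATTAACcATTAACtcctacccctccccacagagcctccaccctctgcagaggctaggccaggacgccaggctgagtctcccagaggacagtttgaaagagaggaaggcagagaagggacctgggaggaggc
Cdx2, chr5:147307200-147307499, minus strand: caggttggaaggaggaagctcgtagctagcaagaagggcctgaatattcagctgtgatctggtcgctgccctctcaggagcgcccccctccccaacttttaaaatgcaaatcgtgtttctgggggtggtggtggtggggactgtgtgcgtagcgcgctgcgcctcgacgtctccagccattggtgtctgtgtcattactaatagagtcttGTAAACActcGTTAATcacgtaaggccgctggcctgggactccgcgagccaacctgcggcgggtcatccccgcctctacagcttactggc
Isx, chr8:74872924-74873223, plus strand: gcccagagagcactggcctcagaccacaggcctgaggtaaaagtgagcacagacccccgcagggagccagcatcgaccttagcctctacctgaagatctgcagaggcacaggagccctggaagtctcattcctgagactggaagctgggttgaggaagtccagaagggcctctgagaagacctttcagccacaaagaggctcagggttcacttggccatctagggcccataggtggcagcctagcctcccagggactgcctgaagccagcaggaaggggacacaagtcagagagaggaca

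All distances here are from the RefSeq start. The upstream Hnf4a window (P2) held an ONECUT match 59 to 54 bases before the start and a GATA match 52 to 47 bases before it. The GENCODE annotation, used for transcripts below, starts P2 further upstream, at 163506808 against 163506857 in RefSeq. Distances from that start differ. The downstream window (P1) held a pair of HNF1 matches, at 81 to 76 and 74 to 69 bases before the start. In Cdx2 a FOXA match (40 to 34 bases before) lay next to an HNF1 match (30 to 25 bases before). The Isx window held none of these letters. Matches of different motifs did not overlap in any of the 4 windows. Over all 32851 windows of the same length, 10.9% held the CDX letters, 18.6% the GATA, 0.475% the HNF4, 7.1% the HNF1, 3.65% the FOXA and 7.54% the ONECUT letters. A match is a description of the sequence and not a measured site. The Cdx2 window had 18 CpG dinucleotides, against a median of 7 over all windows, and Isx had 2.

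Of the 6 factors with enough counts to test, Isx, Hnf4g and Cdx2 rose in the LOH libraries, and Hnf4a, Gata4 and Gata6 did not pass. Isx had enough counts only through its LOH levels. The test was the quasi-likelihood test of edgeR with Benjamini-Hochberg adjustment over 14537 genes and a threshold of 0.05. In that comparison 5.21% of all tested genes passed, 3.55% higher and 1.66% lower in LOH libraries. With the organoid line as a block Isx and Hnf4g passed and Cdx2 did not, where 1.47% of all tested genes passed and 1.22% were higher. The LOH range lay above the heterozygous range, with no overlap, for Cdx2, Isx, Hnf4g and Gata4. Such gaps were common: 32.8% of all tested genes had one, 16.4% with the LOH range above. In edgeR with no block, no gene passed with any 1 heterozygous library left out, and the adjusted p was 0.116 to 0.133 for Cdx2, 0.107 to 0.122 for Isx and 0.121 to 0.143 for Hnf4g. No gene passed there without both libraries of line 23 or of line 34 either. With the block all 3 of these factors passed without heterozygous line 6, and none of them without heterozygous line 23 or 34. In bulk RNA, fewer cells of a type and less RNA per cell cannot be told apart. No label says that the lines come from separate mice, so p-values measure the spread between these libraries.

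**Figure D1:**
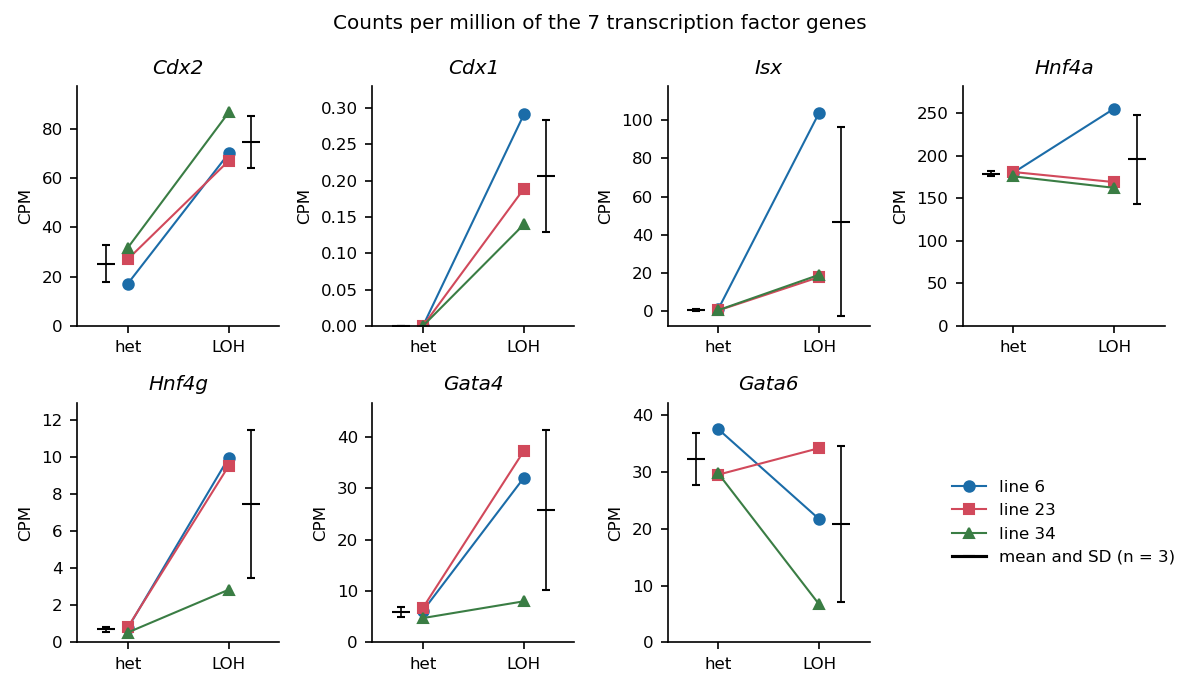
Level of each gene in CPM in heterozygous (het) and LOH libraries, with 1 colour and marker per organoid line and the mean and SD of each group (n = 3) in black. Isx, Cdx2, Hnf4g and Gata4 are higher in the LOH library of each line, Hnf4a and Gata6 overlap between the groups, and Cdx1 lies near the detection limit.

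Cdx2 (ENSMUSG00000029646.3; chromosome 5, 147300805 to 147307270, minus strand, GRCm38), the master regulator of intestinal fate, was already expressed in the heterozygous cultures. Heterozygous lines 6, 23 and 34 gave 514, 365 and 951 counts, or 17.1, 27.1 and 31.7 CPM. Their LOH partners gave 1204, 1777 and 1863 counts, or 70.1, 67.1 and 86.8 CPM. The 3 LOH values lay close together and all above the highest heterozygous value. The means were 25.3 ± 7.46 and 74.6 ± 10.6 CPM (SD, n = 3 per group), and the ratio within lines was 4.09-, 2.48- and 2.73-fold. EdgeR estimated a log2 fold change of 1.56 (SE 0.27, adjusted p 0.029). The blocked estimate was 1.6 (SE 0.27), with an edgeR adjusted p of 0.0645 that missed the threshold. Leaving out LOH line 23 also ended the call (edgeR adjusted p 0.0511).

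Cdx1 (ENSMUSG00000024619.8; chromosome 18, 61018862 to 61036199, minus strand), the paralog that follows CDX2 in the gut, was close to the detection limit. The heterozygous libraries had 0 counts each, and LOH lines 6, 23 and 34 had 5, 5 and 3. The 0 counts allow up to 0.1 CPM in lines 6 and 34 and 0.223 CPM in line 23, and the LOH values were 0.291, 0.189 and 0.14 CPM. LOH line 34 therefore lay at its own floor of 3 counts, and LOH lines 23 and 34 lay within what heterozygous line 23 allows. The gene did not pass the filter on low counts and has no test in the fit. Its low level stood beside a Cdx2 level of 67.1 CPM or more in the same libraries. Cdx4, the other caudal paralog, had 0 counts in all libraries.

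Isx (ENSMUSG00000031621.9; chromosome 8, 74873173 to 74893506, plus strand) went from near 0 to at least 17.7 CPM. Heterozygous lines 6, 23 and 34 had 24, 3 and 11 counts, or 0.801, 0.223 and 0.367 CPM. Their LOH partners reached 1786, 470 and 407 counts, or 104, 17.7 and 18.95 CPM. LOH line 6 stood apart, with 5.86 times the level of the lowest LOH library, but each LOH library was far above each heterozygous one. The means were 0.463 ± 0.301 and 46.9 ± 49.4 CPM (SD, n = 3 each). The ratio was 129.8-fold in line 6 and 51.6-fold in line 34. In line 23 it was 79.7-fold, with an exact 95% interval of 27.1 to 387.9 because the heterozygous library had 3 counts; such intervals cover counting error only. Isx passed the filter on low counts only through its LOH levels. EdgeR put the log2 fold change at 6.55 (SE 0.97, adjusted p 0.0208). Without LOH line 6 it was 5.17, and without heterozygous line 6 it was 7.18. With the line as a block it was 6.38 (SE 0.41, edgeR adjusted p 0.0257). The transcript Isx-201 held 58.5, 9.16 and 9.12 TPM in the LOH libraries, and the shorter Isx-202 at most 2.8 TPM.

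**Figure D2:**
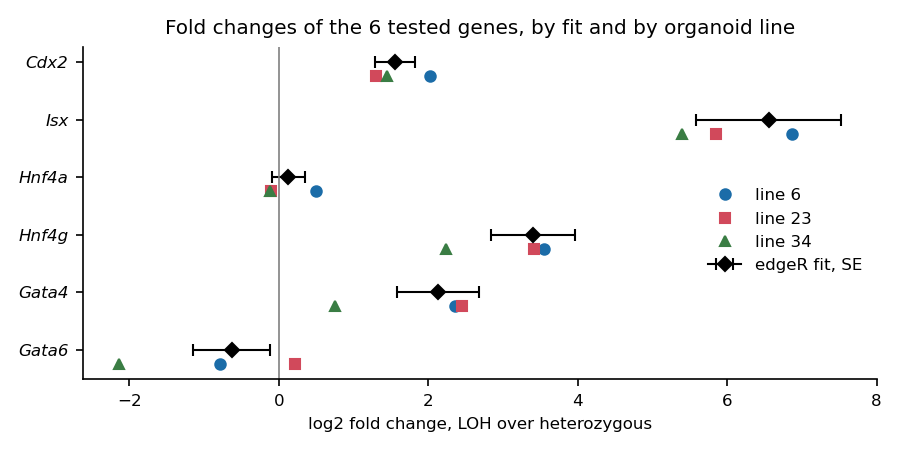
Log2 fold change of LOH over heterozygous libraries for the 6 tested genes. Black diamonds are the edgeR estimate with its SE, and coloured markers the ratio within organoid lines 6, 23 and 34; Isx has the highest estimate at 6.55, and the markers of Hnf4a and Gata6 fall on both sides of 0.

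Hnf4a (ENSMUSG00000017950.16; chromosome 2, 163506808 to 163572910, plus strand), the nuclear receptor shared by liver, pancreas and gut, was the most abundant of the 7 in both groups. The heterozygous libraries had 180.1, 180.9 and 175.8 CPM in lines 6, 23 and 34, and the LOH libraries 255.5, 169.02 and 162.3 CPM. LOH line 6 was above all others, and the other LOH libraries lay just below the heterozygous range. Mean levels were 178.9 ± 2.74 and 195.6 ± 51.98 CPM (SD, n = 3 per group), and edgeR estimated a log2 fold change of 0.13 (SE 0.22, adjusted p 0.742). The direction was not stable: with limma on log2(TPM + 1) the estimate was -0.34, where the median over all genes was -0.35, so it lay 0.01 above that median. Without LOH line 6 it was -0.15 in edgeR. The antisense gene Hnf4aos had 0 counts in every library.

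The pair of Hnf4a promoters, P1 and P2, could be followed only in part. By RefSeq, P1 starts 40298 bases downstream of P2. The annotated transcript from P2, Hnf4a-205, has 3 exons and 431 bases and stops early, whereas Hnf4a-201 from P1 has 10 exons and 4356 bases. Reads from the later exons of a P2 transcript are therefore assigned to the P1 model, and the share is an index, not the promoter's output. The P2 model held 42.5%, 47.1% and 44.7% of Hnf4a TPM in heterozygous lines 6, 23 and 34, and 44.4%, 40.9% and 41.9% in the LOH libraries. The ranges overlapped. The means were 44.8% ± 2.3 and 42.4% ± 1.8 (SD, n = 3 each), and an exact two-sided permutation test gave p = 0.2, where 3 against 3 libraries can reach 0.1. Its share of counts was lower, from 4.35% to 5.42%, since the model is short.

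Hnf4g (ENSMUSG00000017688.14; chromosome 3, 3508030 to 3658052, plus strand), the paralog of HNF4A in the enterocyte, rose while Hnf4a did not pass. Heterozygous lines 6, 23 and 34 gave 23, 11 and 16 counts, or 0.767, 0.816 and 0.534 CPM. Their LOH partners gave 171, 252 and 61 counts, or 9.95, 9.51 and 2.84 CPM. LOH line 34 was the lowest of them and still 5.32-fold above its heterozygous partner, against 12.97-fold in line 6 and 11.7-fold in line 23. Mean levels were 0.706 ± 0.151 and 7.44 ± 3.99 CPM (SD, n = 3 per group). EdgeR estimated a log2 fold change of 3.4 (SE 0.56, adjusted p 0.0267), or 3.22 (SE 0.45, adjusted p 0.0449) with the block. It did not pass without LOH line 23 (edgeR adjusted p 0.0569) or without both libraries of line 6 (0.0642). Per length, Hnf4g remained the minor partner. It took 0.512%, 0.499% and 0.357% of the summed TPM of Hnf4g and Hnf4a in heterozygous lines 6, 23 and 34, against 4.33%, 6.51% and 2.09% in their LOH partners. The 2 ranges did not overlap, but this share was examined after the rise of Hnf4g had been seen, so no test of it is given. Both annotated transcripts were higher: Hnf4g-201 had 0.15 to 0.36 TPM in heterozygous and 0.74 to 2.73 TPM in LOH libraries, and Hnf4g-202 had 0.1 to 0.25 and 0.33 to 1.72 TPM.

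Gata4 (ENSMUSG00000021944.15; chromosome 14, 63198922 to 63271692, minus strand), the GATA factor of foregut and proximal intestine, was higher in each LOH library without passing the test. Heterozygous lines 6, 23 and 34 gave 185, 91 and 142 counts, or 6.17, 6.75 and 4.74 CPM. Their LOH partners reached 32.1, 37.3 and 8.01 CPM. Lines 6 and 23 were 5.2- and 5.52-fold apart, while LOH line 34 lay only 1.69-fold above its partner. Mean levels were 5.89 ± 1.04 and 25.8 ± 15.6 CPM (SD, n = 3 per group). EdgeR estimated a log2 fold change of 2.13 (SE 0.55, adjusted p 0.0695), or 1.88 (SE 0.43, adjusted p 0.109) with the block. Without LOH line 34 edgeR gave 2.56 (SE 0.23, adjusted p 0.0127), but the call was missed without both libraries of line 34 (adjusted p 0.0775) and in the blocked fit without LOH line 34 (0.127). Gata4 also passed with no filter on low counts (edgeR adjusted p 0.0342) and in DESeq2 (adjusted p 0.00177).

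Gata6 (ENSMUSG00000005836.8; chromosome 18, 11052064 to 11085635, plus strand), the marker of the classical type of pancreatic cancer, differed between lines. It had 37.6, 29.5 and 29.8 CPM in heterozygous lines 6, 23 and 34, and 21.7, 34.2 and 6.71 CPM in the LOH libraries. LOH line 34 was 0.225 times its partner and LOH line 6 0.578 times, whereas LOH line 23 was 1.16 times. The groups overlapped, with means of 32.3 ± 4.57 and 20.9 ± 13.8 CPM (SD, n = 3 per group). EdgeR estimated a log2 fold change of -0.63 (SE 0.52), which did not pass (adjusted p 0.475). The annotation places the gene 1010001N08Rik opposite to it, on the other strand, with 2 to 36 counts per library.

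The balance between the 2 GATA factors differed in the same direction in each line. Gata4 took 14.1%, 20.3% and 15.2% of their summed TPM in heterozygous lines 6, 23 and 34, and 61.2%, 52.03% and 60.8% in the LOH libraries. Every LOH value was far above every heterozygous one, LOH line 34 included. The means were 16.5% ± 3.3 and 58.02% ± 5.2 (SD, n = 3 each). The summed TPM itself did not separate the groups, at 14.6 ± 3.41 and 14.02 ± 8.41 (SD, n = 3 each; exact permutation p = 0.9), with 4.44 TPM in LOH line 34. A ratio within a library is untouched by the scaling between libraries, but it does not say which of the genes changed. This balance was examined after the levels had been seen, so no test of it is given. Of the other GATA genes, Gata5, known from gut endoderm, rose from 4.89 ± 2.66 to 27.9 ± 7.45 CPM (SD, n = 3 each; log2 fold change 2.51, SE 0.45, edgeR adjusted p 0.0313, 0.0341 with the block). Gata1, Gata2, Gata3 and Trps1 had 1 to 17 counts over all 6 libraries.

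**Figure D3:**
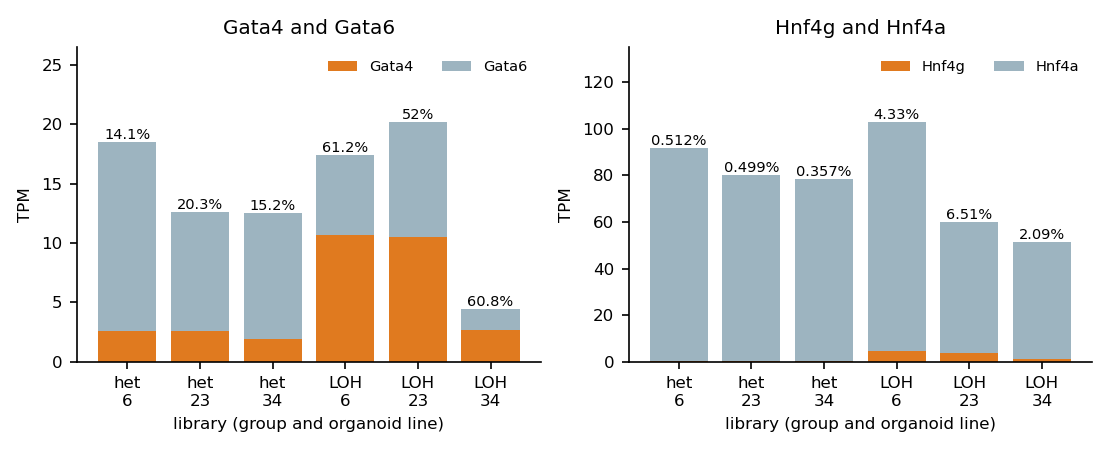
Stacked TPM of Gata4 and Gata6 (left) and of Hnf4g and Hnf4a (right) in each library, by group and organoid line, with the percent taken by the first gene above each bar. Gata4 takes 14.1% to 20.3% in heterozygous and 52.03% to 61.2% in LOH libraries, and Hnf4g at most 0.512% and 6.51%.

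Per length, the order of the 7 in heterozygous libraries was Hnf4a (83.1 ± 7.21 TPM), Cdx2 (13.4 ± 2.95), Gata6 (12.2 ± 3.21), Gata4 (2.36 ± 0.39), Isx (0.403 ± 0.373), Hnf4g (0.383 ± 0.096) and Cdx1, listed at 0 (SD, n = 3). Cdx2 and Gata6 did not differ beyond their spread, nor did Isx and Hnf4g. In LOH libraries it was Hnf4a (68.3 ± 26.4 TPM), Cdx2 (30.4 ± 2.67), Isx (26.6 ± 30.0), Gata4 (7.96 ± 4.55), Gata6 (6.06 ± 4.02), Hnf4g (3.14 ± 1.82) and Cdx1 (0.113 ± 0.051). From Cdx2 down to Hnf4g, no gene differed from the next in this order beyond their spread. The place of Isx rests on LOH line 6, where it had 61.3 TPM and exceeded Cdx2, at 31.4 TPM. In LOH line 23 Isx, at 9.46 TPM, lay below Gata4, at 10.5 TPM, and Gata6, at 9.69 TPM.

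The 2 genes whose pattern over the 6 libraries was nearest to each factor were found among the 12678 tested genes that averaged 1 CPM or more. The measure was the root mean square difference of log2 CPM after each gene's mean was removed. For Isx they were Lypd8 (0.642) and Gucy2c (0.747), a secreted intestinal antibacterial protein and the receptor of guanylin. Gucy2c had 3, 0.371 and 2.1 CPM in heterozygous lines 6, 23 and 34 and 113.2, 27.1 and 37.5 CPM in LOH libraries, with line 6 highest, as for Isx. For Cdx2 they were Il33 (0.107), an alarmin cytokine, and Arl4a (0.159), and for Hnf4g Ociad2 (0.215) and Plch2 (0.243). Gata4 was nearest to Syt16 (0.123) and Glul (0.195), glutamine synthetase, which share its low value in LOH line 34. Gata6 was nearest to Adcy9 (0.107) and Gramd1b (0.148), and Hnf4a to Nbdy (0.048) and Clcn7 (0.049). A low difference for a gene that hardly varies, such as Hnf4a, is easily reached.

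Position on the chromosome was examined for each gene. The log2 ratio of each factor was set beside the median of up to 20 neighbours on either side that averaged 5 CPM or more. For Isx the neighbours had medians of 0.48, -0.02 and -0.02 in lines 6, 23 and 34, against 6.87, 5.85 and 5.39 for the gene. For Gata6 the neighbours had -0.33, 0.38 and 0.39, against -0.79, 0.21 and -2.14 for the gene. In LOH line 34 Gata6 was thus low among neighbours that were not. For Hnf4a they had 0.25, -0.41 and -0.04, against 0.5, -0.1 and -0.12 for the gene. Each of these medians compares a single pair of libraries. The neighbours of Cdx2, Hnf4g and Gata4 had medians between -0.21 and 0.16.

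**Figure D4:**
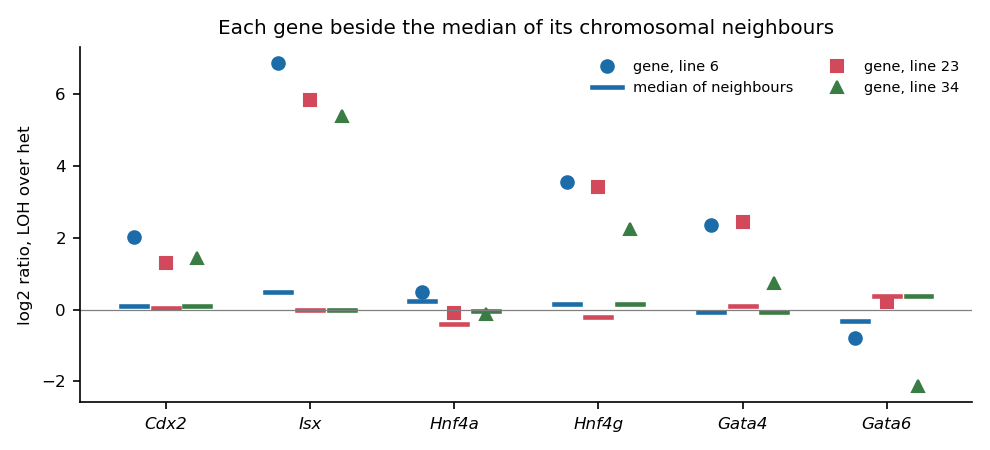
Log2 ratio of LOH over heterozygous (het) libraries for each tested gene (markers) in organoid lines 6, 23 and 34, beside the median of its neighbours on the chromosome (short bars in the same colour). Isx, Hnf4g, Cdx2 and Gata4 lie above their neighbours in each line, and Gata6 in line 34 lies at -2.14 beside neighbours at 0.39.

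Intestinal genes known to respond to CDX2 and HNF4 in the gut rose in part. Of 30 listed genes 18 could be tested: 8 rose, 1 fell and 9 did not pass, where 3.55% of all tested genes rose. The median log2 fold change was 2.41 beside 0.06 over all genes tested. The list was chosen with earlier results of these data known. Muc13, Alpi and Tm4sf5 passed the filter on low counts only through their LOH levels, and genes low in both groups dropped out. The median therefore leans upward by selection, and it describes the list without testing it. With the block 6 listed genes rose: 4 of the 8 above, which are described next, and Alpi and Tm4sf5. Krt20, a keratin of differentiated gut epithelium, rose from 8.33 ± 1.57 to 79.1 ± 13.2 CPM. Gpa33, a surface antigen of intestinal epithelium, rose from 3.2 ± 1.42 to 89.6 ± 19.3 CPM, and Muc13, a membrane mucin, from 0.284 ± 0.214 to 25.5 ± 13.1 CPM. Cdhr2, a protocadherin of the brush border, rose from 4.97 ± 0.678 to 64.8 ± 51.2 CPM (SD, n = 3 for each of these). Their edgeR adjusted p-values were 0.00669, 0.00669, 0.0109 and 0.0229. The others that rose were Lgals4, Cdhr5, Heph and Vil1, and none of these passed with the block (edgeR adjusted p 0.0735, 0.0941, 0.0974 and 0.113). Slc6a19, a neutral amino acid transporter of the small intestine, fell from 2.55 ± 0.108 to 0.362 ± 0.151 CPM (SD, n = 3 each; edgeR adjusted p 0.0246, 0.0696 with the block, which ends the call). Slc6a19 passed the filter on low counts only through its heterozygous levels. Cdh17, a cadherin of the intestine and a known CDX2 target, had 199.9 ± 63.8 and 454.2 ± 179.8 CPM (SD, n = 3 each). Cdh17 did not pass (edgeR adjusted p 0.114). Tm4sf4 had 44.6 ± 1.3 and 45.3 ± 45.9 CPM (SD, n = 3 each; edgeR adjusted p 0.99).

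Of the same list, Apoa4 and Alpi were highest in LOH line 6. Apoa4, an apolipoprotein of chylomicrons, had 12.2, 0 and 0.0466 CPM in LOH lines 6, 23 and 34, and 0 counts in the heterozygous libraries. Alpi, intestinal alkaline phosphatase, had 64.5, 0.491 and 3.26 CPM in the LOH libraries and at most 0.3 CPM in the heterozygous ones. It did not pass without the block (edgeR adjusted p 0.086) and passed with it (0.0257). Tm4sf5, a tetraspan membrane protein, had 22.5, 1.81 and 0.466 CPM in the LOH libraries and at most 0.567 CPM in the heterozygous ones (edgeR adjusted p 0.122, 0.0397 with the block). Apob, by contrast, was highest in LOH line 23, at 31.3 CPM against 14.4 CPM in LOH line 6. Isx and Hnf4a, like Apoa4 and Alpi, were highest in LOH line 6. Fabp1, Fabp2 and Sis had 10, 26 and 15 counts over all 6 libraries.

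Factors that act beside the 7 moved in both directions. Of 22 partner factors 21 were tested: 3 rose, 4 fell and 14 did not pass. Of all tested genes 3.55% rose and 1.66% fell. The median log2 fold change of the list was 0.38. Foxa1, a pioneer factor of endoderm, rose, with 0.445 to 1.5 CPM in heterozygous and 15.5 to 27.8 CPM in LOH libraries (edgeR adjusted p 0.0132, 0.0318 with the block), while Foxa2 had 47.7 and 31.6 CPM and did not pass (0.266). Elf3, an epithelial ETS factor, rose from 70.3 ± 13.2 to 226.9 ± 19.0 CPM (SD, n = 3 each; edgeR adjusted p 0.0164, 0.0453 with the block). Klf4, a factor of differentiated gut epithelium, rose from 31.9 ± 0.77 to 72.1 ± 8.36 CPM (SD, n = 3 each; edgeR adjusted p 0.0208, 0.0852 with the block). Onecut1, which acts with HNF4A in liver and pancreas, fell from 23.4 ± 16.5 to 1.13 ± 1.04 CPM, and Nr5a2, a nuclear receptor of liver and exocrine pancreas, from 19.5 ± 6.05 to 2.41 ± 1.85 CPM. Cebpa, a liver factor, fell from 10.9 ± 1.86 to 4.003 ± 0.613 CPM (SD, n = 3 for each of these). Their edgeR adjusted p-values were 0.0365, 0.0474 and 0.0333, and 0.106, 0.0814 and 0.0852 with the block. Nr0b2, a repressor of liver nuclear receptors, had 0.445 to 1.24 CPM in heterozygous libraries and lay below 3 counts in each LOH library (edgeR adjusted p 0.0302, 0.0949 with the block). In the blocked fit of all 6 libraries none of these 4 falls passed. Onecut1 and Nr0b2 passed the filter on low counts only through their heterozygous levels. Onecut2 (67.3 and 158.8 CPM) and Klf5 (97.2 and 161 CPM) did not pass, at edgeR adjusted p-values of 0.216 and 0.0759.

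**Figure D5:**
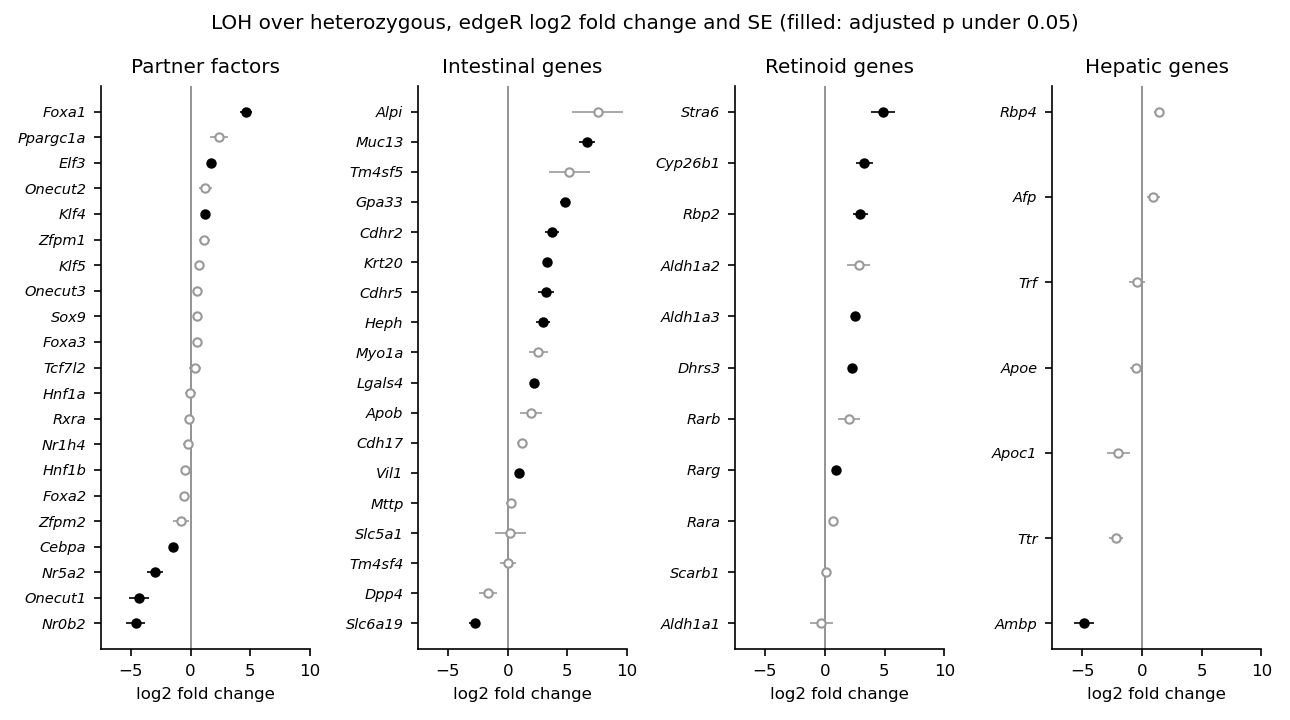
EdgeR log2 fold change (LOH over heterozygous) with its SE for the tested genes of 4 lists: partner factors, intestinal genes, retinoid genes (1 gene that did not pass is not shown) and hepatic genes. Filled circles have an adjusted p under 0.05; 8 intestinal and 6 retinoid genes lie to the right of 0 as filled circles, and 1 hepatic gene (Ambp) to the left.

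Among 14 factors of foregut and pancreas, 8 were tested and 2 fell, where 1.66% of all tested genes fell. Neither of the 2 passed with the block. With the block 1 rose: Sox21, a SOX factor, had 0.583 and 7.67 mean CPM in heterozygous and LOH libraries (edgeR adjusted p 0.106, 0.0397 with the block). Hhex, a homeobox factor of foregut, liver and pancreatic duct, fell from 47.4 ± 3.46 to 9.06 ± 4.5 CPM (SD, n = 3 each; edgeR adjusted p 0.0293, 0.0537 with the block). Nkx2-2, an islet lineage factor, had 2.1, 0.89 and 0.935 CPM in heterozygous lines 6, 23 and 34. The LOH libraries had at most 0.0466 CPM of it (edgeR adjusted p 0.0229, 0.0675 with the block). Nkx2-2 passed the filter on low counts only through its heterozygous levels, and Sox21 only through its LOH levels. Pdx1, the pancreatic and duodenal homeobox factor whose promoter drives Cre in these mice, had 26.7 ± 2.06 and 31.9 ± 16.2 CPM (SD, n = 3 each) and did not pass (edgeR adjusted p 0.718). Foxq1 had 59.8 and 84.6 CPM (edgeR adjusted p 0.159). Sox2 and Barx1, factors of stomach endoderm and its mesenchyme, had no count in any library.

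Most of the listed hepatic genes, which include plasma proteins and liver enzymes, were low or absent. Of 25 listed genes 7 were tested, of which 1 fell and the other 6 did not pass, where 1.66% of all tested genes fell. The median log2 fold change of the list was -0.52. Ambp, a liver plasma protein, fell from 80.4 ± 15.4 to 2.83 ± 3.12 CPM (SD, n = 3 each; edgeR adjusted p 0.0284, 0.0458 with the block). Ttr, transthyretin, had 44.7 ± 7.32 and 9.82 ± 7.13 CPM (SD, n = 3 each; edgeR adjusted p 0.0808), and Trf, transferrin, had 161.7 ± 40.1 and 123.4 ± 121.8 CPM (SD, n = 3 each; 0.749). Albumin (Alb) had at most 0.801 CPM in any library, and Ahsg, F9, F10, Cps1, Pck1, Cyp7a1 and Serpina1a had 0 counts.

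Some listed genes of the retinoid pathway, to which ISX belongs, were also higher. Of 17 listed genes 12 were tested, of which 6 rose and the other 6 did not pass, where 3.55% of all tested genes rose. The median log2 fold change was 2.24, beside 0.06 over all genes tested. With the block 2 rose, and without both libraries of line 6 only 1 passed. This list too was chosen with earlier results known. Stra6, Aldh1a2 and Cyp26b1 passed the filter on low counts only through their LOH levels, so the median leans upward by selection and tests nothing. Aldh1a3, which makes retinoic acid, rose from 2.79 ± 0.319 to 16.3 ± 5.71 CPM (edgeR adjusted p 0.0164, 0.0397 with the block). Dhrs3, which turns retinal back to retinol, rose from 7.73 ± 2.49 to 37.5 ± 16.1 CPM (edgeR adjusted p 0.0274, 0.0341 with the block). Rarg, a retinoic acid receptor, rose from 21.8 ± 1.74 to 42.6 ± 7.25 CPM, and Cyp26b1, which breaks retinoic acid down, from 0.197 ± 0.119 to 1.99 ± 0.976 CPM (SD, n = 3 for each of these). Their edgeR adjusted p-values were 0.0423 and 0.0442, and 0.124 and 0.0537 with the block. The other genes that rose were Stra6 and Rbp2, and neither passed with the block (edgeR adjusted p 0.0968 and 0.124). The 2 known targets that ISX represses in the gut gave no called change: Scarb1 had 36.9 ± 1.33 and 39.4 ± 3.42 CPM (SD, n = 3 each; log2 fold change 0.1, SE 0.17, edgeR adjusted p 0.75), and Bco1 had at most 0.867 CPM in any library and no test.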

How the data were processed

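Total RNA of 6 organoid cultures was made into libraries with a stranded kit, per the labels' protocols. The submitters' processing notes name FastQC 0.11.5, STAR 2.5.2b, RSEM 1.3.0, DESeq2 1.44.0 and build GRCm38.p5, without roles; the strand setting of the counting is not given in the sources used here. The deposited tables hold expected counts (RSEM's estimated counts, which need not be whole) and TPM values (scaled for length and depth by the authors), per gene and per transcript. A deposited table of size-factor normalized signal gave gene names only (23525 genes); reference names covered 29794 others and 60 had none. Coordinates and transcript models are from GENCODE M21 (GRCm38).

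Groups and line numbers came from the titles. Counts were rounded, filtered with filterByExpr (14537 genes left), scaled by TMM and tested with edgeR 4.0.16 (R 4.3.3), two-sided; log2 CPM used a prior count of 2, and an SE is the log2 fold change over the square root of F. The same number in the title marks 1 organoid line, so the numbers pair the libraries. Deviations from group means correlated at -0.3, 0.01 and 0.29 over genes in lines 6, 23 and 34. Between heterozygous and LOH libraries of different lines they correlated at -0.387 to 0.296, so partners were no more alike by this measure. No label states a paired model, so the line block is an alternative and is given beside the calls it changes. Others were RLE, other filters, DESeq2 1.42.0, limma 3.58.1 on TPM, and each library or line left out. Exact permutation tests used scipy 1.17.1. On simulated data over 14118 genes the unblocked fit called 67 of 67 genes changed 16-fold, 45 of 67 changed 4-fold and 5 of 66 changed 2-fold, with 6 false calls. The blocked fit called 66, 38 and 2, with 6 false calls. The changed genes were drawn from better expressed genes, so these shares do not hold for genes as low as Hnf4g. No line effect was simulated, so the simulation cannot show what the block does for real line pairs.

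The 7 genes and all lists were chosen with earlier results of these data known. Named list genes were, per list, up to 4 higher and 4 lower with the smallest p among those called, and the 2 most abundant that were not; Foxa2, Alb, Bco1, Alpi, Apoa4, Tm4sf5, Apob, Sox21, the genes named as near 0 and those named without values were added after their values were seen. Some items of the genotype and lists are not reported here.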

Additional observations from a re-analysis of the deposited data

Results flagged for a closer look

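For Hnf4a and Gata6 the sign of the log2 ratio of LOH over heterozygous libraries was not the same in every organoid line. A line holds a single pair of libraries, and the difference between lines was not tested. For Gata6 the log2 ratios were -0.79, 0.21 and -2.14 in lines 6, 23 and 34, a distance of 2.35 between the highest and the lowest. For Hnf4a they were 0.5, -0.1 and -0.12, a distance of 0.62. The cause of either was not tested.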

How the results depend on the processing

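The 757 genes that differed became 213 with the replicate block, 2262 in DESeq2, and 1911 and 1753 in limma on log2(TPM + 1) and log2(TPM + 0.1). With a library or a line left out, blocked or not, they ran from 0 to 2449; without heterozygous or LOH line 6 the blocked fit gave 2371 and 2382. Leaving out heterozygous line 6, 23 or 34 gave 0 in edgeR with no block, although 2966, 2637 and 2272 genes had an unadjusted p under 0.05. Of the 7 factors, 3 were called, 2 with the block, and 0 to 4 in the leave-outs. Of the intestinal genes 9 were called, 6 with the block, 14 in DESeq2, 10 without LOH line 6 and 0 to 11 in all leave-outs. The log2 fold change of Hnf4a turned to -0.34 and -0.35 in limma on TPM and ran from -0.15 to 0.24 in the leave-outs, falling below 0 without LOH line 6 (-0.15), without both libraries of line 6 (-0.13), and with the block without heterozygous or LOH line 6 (-0.14 and -0.13). The share of the Hnf4a P2 model differed by -2.42 points, and by -4.53 to -0.49 with a line left out. The cause of these changes was not tested. Counts of 3 to 24 in heterozygous libraries limit the precision of the Isx and Hnf4g ratios.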

Other observations

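Genes of secretory and stem cells of the intestine were read as a further list of 10. Of the 6 tested, 1 fell, where 1.66% of all tested genes fell. This was Spink4, a goblet cell product, which went from 30.2 to 6.51 mean CPM (edgeR adjusted p 0.0343, 0.0341 with the block). Muc2, the goblet cell mucin, had at most 3.59 CPM in any library and did not pass (edgeR adjusted p 0.0999). Lgr5, a Wnt-responsive stem cell gene, had 6.51 and 19.4 mean CPM in heterozygous and LOH libraries and did not pass (edgeR adjusted p 0.0805). Tff3, a goblet cell trefoil peptide, had 36.3, 0.227 and 26.2 CPM in LOH lines 6, 23 and 34, so LOH line 23 was far below the others. Cftr, the chloride channel of duct and gut, had 8.25 and 60.5 mean CPM; it did not pass without the block (edgeR adjusted p 0.0602) and passed with it (0.0431). Cftr comes from the duct list, and all these genes were picked after their values were seen.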
